A study of Mus musculus with 6 samples.

Results

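Metabotropic glutamate receptors are the G protein-coupled receptors for glutamate, and 6 of their genes, Grm2, Grm3, Grm4, Grm5, Grm7 and Grm8, were followed here in mouse neuronal cultures in which Pla2g4e had been knocked down. The genes were picked by symbol from the 55357 genes counted in each library, with earlier results of these data known. The RNA-seq data came from wild-type primary cultures prepared from the cortex and hippocampus of C57BL/6N embryos at E18. In 3 libraries (shCtrl) the cultures had received a lentivirus with a scrambled shRNA and in 3 libraries (shPla2g4e) a lentivirus with the sh2 shRNA against Pla2g4e, in both groups at DIV4 with collection at DIV14. Knockdown and control each rested on a single shRNA sequence in the pLVTHM vector, and the amount of virus had been chosen for a partial loss of the transcript. No source states that the replicates were separate cultures, so that p-values measure the spread between these libraries, which may be technical.

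The receptors fall into groups by sequence and coupling. Group I, here Grm5, couples to Gq and phospholipase C, lies mostly on the postsynaptic side and raises intracellular calcium. Group II (Grm2 and Grm3) and group III (Grm4, Grm7 and Grm8) couple to Gi/o, lower adenylyl cyclase activity and are best known as brakes on transmitter release at presynaptic terminals. Grm3 is also a receptor of astrocytes, and in the developing brain Grm5 is found in both neurons and astrocytes.

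The libraries held between 17054717 and 23570180 reads on exons. Levels are given as CPM, which are reads scaled to a common library size with the TMM factors, and shPla2g4e was set against shCtrl by the quasi-likelihood test of edgeR over the 21876 genes that had at least 6 reads in some library. Genes were called down-regulated or up-regulated at a Benjamini-Hochberg adjusted p under 0.01, taken over all genes tested. This rule took in 6.49% of genes, 4.00% as down-regulated and 2.48% as up-regulated, so that 61.7% of the calls were down, and with scaling by library size alone this share was 43.3%. Pla2g4e, the targeted gene, measured 35.1 to 38.0 CPM in the shCtrl libraries and 14.1 to 21.8 CPM in the shPla2g4e libraries. Its change was −0.99 on the log2 scale, with a standard error of 0.13 and an adjusted p of 1.24e-04, and the libraries thus followed their labels.

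The sequences of the sh2 hairpin are shown with the places in the receptor transcripts whose letters match its seed. The seed is bases 2 to 8 of the guide strand and is shown in capitals in the guide, as is the matching stretch in the target strand.
sh2 target strand: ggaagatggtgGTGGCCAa
sh2 guide strand: tTGGCCACcaccatcttcc

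The seed match GTGGCCA was searched on the sense strand of the transcript with the longest coding sequence of each receptor gene in GENCODE vM21. It occurred 3 times in Grm2, 3 times in Grm4, 1 time in Grm3 and 1 time in Grm5, always in the coding sequence, and had no occurrence in Grm7 or Grm8. No 5′ or 3′ UTR of these 6 transcripts held it, but their annotated 3′ UTRs were as short as 71 nt in Grm7 and 227 nt in Grm3, and exon bases outside these transcripts were not searched. Over all genes with a coding transcript, 25.6% of 15805 coding sequences and 12% of 15431 3′ UTRs held the match, a share not adjusted for length. The receptors' coding sequences had 2616 to 3609 nt. The longest run that a receptor transcript shared with the 19 bases of the target was 10 bases, in Grm4, and the others shared between 6 and 9. The windows are given 5′ to 3′ as in the mRNA with 11 bases on either side, coordinates of the match in GRCm38, and the match in capitals.
Grm5 exon 1, chr7:87603000-87603006: gctcgagttctGTGGCCAttcaagttcag
Grm2 exon 3, chr9:106651227-106651233: tctccatccagGTGGCCAatctcctgcgg
Grm2 exon 3, chr9:106650975-106650981: gcaacatctgcGTGGCCActtcggagaag
Grm2 exon 4, chr9:106647471-106647477: ccgcctcacagGTGGCCAtctgcctggca
Grm3 exon 3, chr5:9570345-9570351: ccttcacctggGTGGCCAgcgatggctgg
Grm4 exon 2, chr17:27502667-27502673: tctcgatcatgGTGGCCAacatcctccgc
Grm4 exon 9, chr17:27435448-27435454: gagcggatgcaGTGGCCAgggagtggcca
Grm4 exon 9, chr17:27435437-27435443: gtggccagggaGTGGCCAgcagctgccac

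The last pair of windows overlap each other in exon 9 of Grm4. Both group II genes hold the match, as do the group I gene and 1 of the group III genes. The part of the seed in the levels below was not tested.

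All 6 receptor genes passed the filter on low reads. In the shPla2g4e libraries 3 of the 6 were down-regulated, Grm2, Grm3 and Grm4, against 4.00% of all genes. None was up-regulated, against 2.48% of all genes. The count was also 0 with limma after voom and with DESeq2, against 2.3% and 3.14% of all genes. It was 0 as well at an unadjusted p under 0.05, whose share over all genes was not counted. All 6 fold changes were below 0, with a median log2 value of −0.54 beside 0.03 over all genes tested. For 5 of them each shPla2g4e library lay below each shCtrl library, which held for 14.6% of all genes, while 30.0% did not overlap in one direction or the other. Grm8 was the exception. In bulk libraries, fewer cells of a type and less RNA per cell cannot be told apart.

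Among the group II receptors, Grm2 encodes mGluR2, a presynaptic autoreceptor of glutamatergic terminals (ENSMUSG00000023192, GRCm39 chromosome 9, 106520294 to 106533281, minus strand). In shCtrl replicates 1, 2 and 3 it measured 48.8, 52.1 and 44.0 CPM, as against 24.4, 19.97 and 22.1 CPM in the shPla2g4e replicates. Even the highest shPla2g4e library stood far below the lowest control. The means were 48.3 ± 4.07 CPM and 22.1 ± 2.21 CPM (SD, n = 3 each), which left 45.9% of the control level. The log2 fold change was −1.12 (standard error 0.10, 95% interval −1.34 to −0.90, adjusted p = 4.32e-06), and Grm2 stood at rank 53 by p among all genes tested. About 9.6% of the exon bases of Grm2 lie opposite Gm28111 on the other strand. No strand option is recorded for the counting, so that reads of that gene may have been counted or lost there.

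Grm3 encodes mGluR3, the group II receptor that also responds to the dipeptide NAAG (ENSMUSG00000003974, GRCm39 chromosome 5, 9535541 to 9775170, minus strand). It measured 35.9, 41.9 and 31.0 CPM in shCtrl replicates 1 to 3 and 17.7, 13.2 and 15.8 CPM in the shPla2g4e replicates. The groups were clearly apart although the control libraries varied by 15.0% of their mean (coefficient of variation). Means were 36.3 ± 5.45 CPM and 15.6 ± 2.25 CPM (SD, n = 3 each). The log2 fold change of −1.22 (standard error 0.13, 95% interval −1.50 to −0.94, adjusted p = 1.73e-05) left 42.9% of the control level. No exon of Grm3 overlapped another gene. The interval of the change in Grm3 covered the value of Grm2.

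In group III, Grm4 encodes mGluR4, a presynaptic receptor (ENSMUSG00000063239, GRCm39 chromosome 17, 27641361 to 27740377, minus strand). The shCtrl replicates had 53.9, 57.4 and 45.9 CPM and the shPla2g4e replicates 34.6, 28.7 and 29.4 CPM, again without overlap. Its mean went from 52.4 ± 5.90 CPM to 30.9 ± 3.18 CPM (SD, n = 3 each), which is 59.1% of the control. The log2 fold change was −0.76 (standard error 0.11, 95% interval −0.98 to −0.54, adjusted p = 1.72e-04).

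Grm7 encodes mGluR7, a receptor of low glutamate affinity that sits in the active zone of presynaptic terminals (ENSMUSG00000056755, GRCm39 chromosome 6, 110622542 to 111544191, plus strand). It stood at 118.2, 122.9 and 118.1 CPM in shCtrl replicates 1 to 3, where it varied little, and at 108.2, 78.1 and 100.4 CPM in the shPla2g4e replicates. Replicate 2 was the low library of the knockdown group, and no library crossed into the other group. The means of 119.7 ± 2.75 CPM and 95.6 ± 15.6 CPM (SD, n = 3 each) gave a log2 fold change of −0.33 (standard error 0.10, 95% interval −0.54 to −0.11), with an adjusted p of 0.0473 that missed the threshold. With the replicate number as a block, which compares same-numbered libraries, the value was −0.34 with an adjusted p of 2.44e-04, past it. Without shPla2g4e replicate 2 it was −0.20 with an adjusted p of 0.193.

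Grm8 encodes mGluR8, another presynaptic receptor (ENSMUSG00000024211, GRCm39 chromosome 6, 27275118 to 28135177, minus strand), and was the scarcest of the 6 genes with 98 to 174 reads per library. Its levels were 8.44, 8.05 and 4.71 CPM in shCtrl replicates 1 to 3 and 6.07, 4.53 and 8.28 CPM in the shPla2g4e replicates, and the groups overlapped widely. Counting error alone gives the library with fewest reads a 95% interval of ±20.3%. The log2 fold change was −0.17 (standard error 0.24, 95% interval −0.68 to 0.34, adjusted p = 0.724), and it was 0.02 without shPla2g4e replicate 2. The interval overlaps that of Grm4, and the difference between the genes was not tested. The change was −0.40 without shCtrl replicate 3 and −0.41 without shPla2g4e replicate 3, neither past the test.

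The group I gene Grm5 encodes mGluR5, the Gq-coupled receptor of dendritic spines (ENSMUSG00000049583, GRCm39 chromosome 7, 87233376 to 87784115, plus strand). It had 230.3, 216.6 and 217.1 CPM in shCtrl replicates 1 to 3 and 204.2, 188.3 and 185.0 CPM in the shPla2g4e replicates. Each knockdown library was below each control, by a small distance. The means were 221.3 ± 7.77 CPM and 192.5 ± 10.3 CPM (SD, n = 3 each), and the log2 fold change of −0.20 (standard error 0.077, 95% interval −0.37 to −0.04, adjusted p = 0.106) did not pass the test. This interval does not reach the intervals of Grm2, Grm3 or Grm4, and the difference between genes was not tested further.

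**Figure D1:**
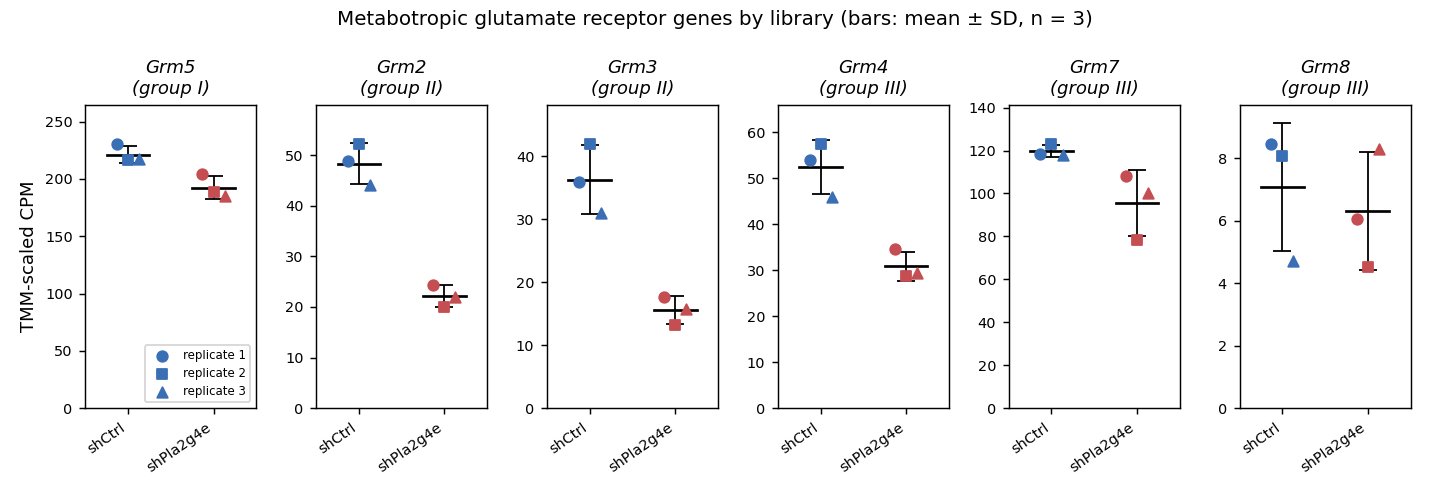
TMM-scaled CPM of each receptor gene (vertical axis, from 0, its own scale in each panel) in the 3 shCtrl and 3 shPla2g4e libraries, with marker shapes for the replicate number and bars for the mean ± SD. The shPla2g4e libraries of Grm2, Grm3 and Grm4 sit well under the controls, those of Grm5 and Grm7 just under them, and those of Grm8 among them.

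Set against the library with the same number, all 6 genes were lower in pairs 1 and 2. In pair 3 Grm8 was higher by 0.82 on the log2 scale and the other 5 genes were lower. Pair 2 had the widest gap for 5 of the 6 genes, among them Grm3 with −1.67 beside −1.03 and −0.97 in pairs 1 and 3, and Grm2 with −1.38 beside −1.0 in each of the others. Pla2g4e itself also had its widest gap in pair 2, −1.31 beside −0.80 and −0.92. Grm5 was the exception, with −0.17, −0.20 and −0.23 in pairs 1, 2 and 3.

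**Figure D2:**
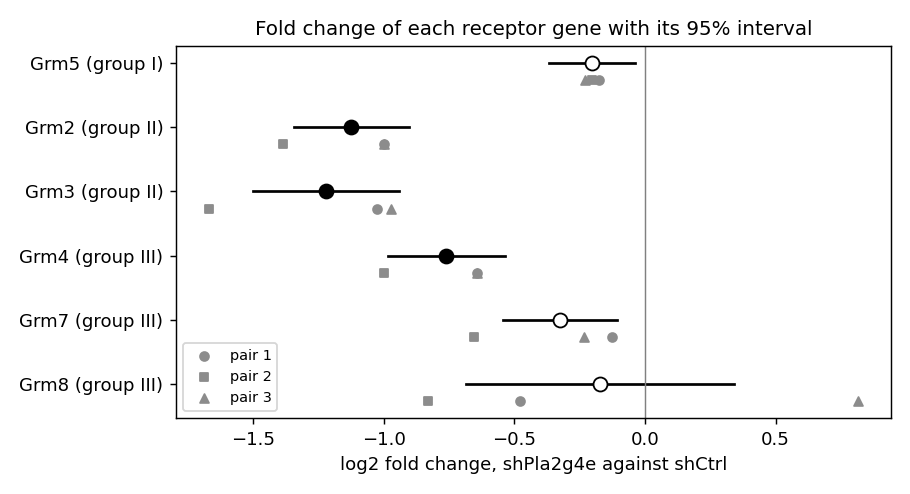
Log2 fold change of each receptor gene, shPla2g4e against shCtrl (horizontal axis), with its 95% interval from edgeR, filled where the adjusted p is under 0.01, and grey markers below for the ratio in each same-numbered pair. Grm2, Grm3 and Grm4 are filled, and the interval of Grm8 spans 0.

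To compare levels between genes, CPM were divided by the exon length in the files, in kb. This length joins the exons of all transcripts of a gene, so that a gene with long exons that are little used here is understated. In shCtrl libraries Grm5 was at 21.6 ± 0.758 CPM per kb and Grm7 at 20.3 ± 0.467 (SD, n = 3), and their ranges did not overlap although Grm5 was only 1.01 to 1.12 times Grm7 within a library. Next came Grm3 at 11.9 ± 1.79, Grm2 at 9.87 ± 0.831 and Grm4 at 8.77 ± 0.987 CPM per kb, where neighbours overlapped. Within a shCtrl library Grm3 was 1.13 to 1.29 times Grm2, and Grm2 was 1.10 to 1.17 times Grm4. Grm8 followed at 0.714 ± 0.207 CPM per kb, so that the top of the order was 30.3 times its bottom. In shPla2g4e libraries Grm5 (18.8 ± 1.0 CPM per kb) and Grm7 (16.2 ± 2.65) overlapped, and Grm4 (5.17 ± 0.533), Grm3 (5.10 ± 0.738) and Grm2 (4.52 ± 0.451) overlapped from neighbour to neighbour, although Grm3 was 1.06 to 1.16 times Grm2 within a library. Grm5 was 1.06 to 1.38 times Grm7 within a shPla2g4e library. Grm8 was last again, at 0.636 ± 0.191 CPM per kb.

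Summed over the 6 genes, the level per kb was 73.2 ± 4.21 CPM in shCtrl and 50.4 ± 5.08 CPM in shPla2g4e libraries (SD, n = 3). Group II made up 28.0% to 31.8% of this sum in shCtrl and 18.5% to 19.4% in shPla2g4e libraries, with no overlap. Group I, that is Grm5, made up 27.5% to 30.9% in shCtrl and 35.7% to 40.5% in shPla2g4e libraries. Group III ranged from 40.4% to 41.1% in shCtrl and from 40.9% to 45.1% in shPla2g4e libraries, which overlapped. Within group III the share of Grm4 was 11.95% ± 0.676 in shCtrl and 10.3% ± 0.457 in shPla2g4e libraries, and that of Grm7 27.8% ± 1.23 and 32.1% ± 2.40 (SD, n = 3). Shares add up to the whole, so that a lower share of group II goes with a higher share elsewhere, and these values are a description.

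**Figure D3:**
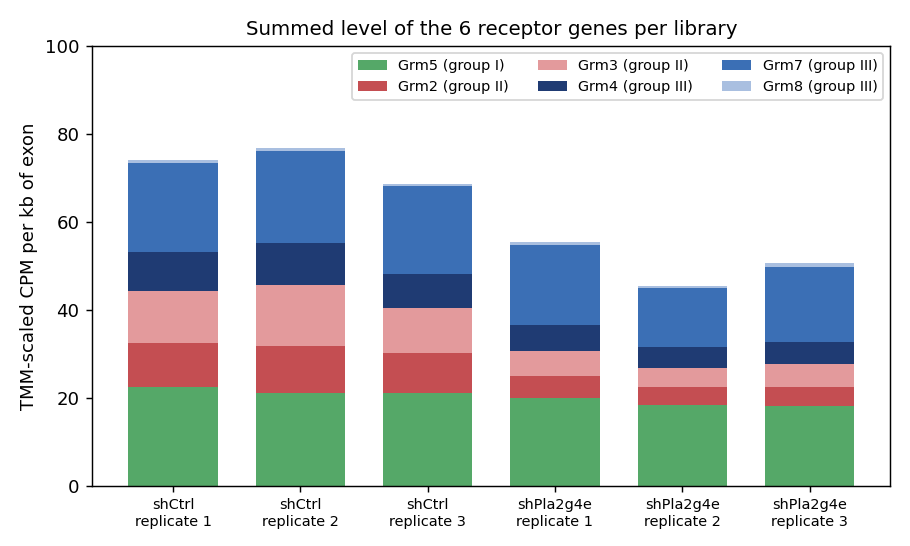
Summed TMM-scaled CPM per kb of exon of the 6 receptor genes (vertical axis) in each library, stacked by gene with one colour family per receptor group. Bars reach 68.6 to 76.8 in the shCtrl and 45.3 to 55.5 in the shPla2g4e libraries, and the red segments of group II are the ones that shrink by the largest share.

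Grm2 and Grm3 had nearly the same change, and their promoters are shown because of it. They are the 250 bases before and 50 after the start in the RefSeq table of GRCm38.p6, read 5′ to 3′ on the gene's strand, with the GC box GGGCGG, searched on both strands, in capitals.
Grm2 promoter, chr9:106656060-106656359: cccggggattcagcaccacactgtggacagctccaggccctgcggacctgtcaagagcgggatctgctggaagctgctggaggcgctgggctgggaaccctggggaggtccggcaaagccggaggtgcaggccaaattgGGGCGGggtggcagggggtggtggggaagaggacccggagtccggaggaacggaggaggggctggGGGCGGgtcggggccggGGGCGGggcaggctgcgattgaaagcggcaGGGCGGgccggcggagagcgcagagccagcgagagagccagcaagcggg
Grm3 promoter, chr5:9725303-9725602: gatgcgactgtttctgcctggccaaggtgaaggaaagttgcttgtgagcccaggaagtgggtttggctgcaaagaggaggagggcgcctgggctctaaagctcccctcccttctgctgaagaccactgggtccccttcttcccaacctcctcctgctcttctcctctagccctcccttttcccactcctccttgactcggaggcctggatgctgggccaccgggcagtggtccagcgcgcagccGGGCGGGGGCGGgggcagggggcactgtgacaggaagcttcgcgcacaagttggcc

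The Grm2 window held 4 GC boxes and had a GC content of 72%. The Grm3 window held 2 that adjoin and had 63.7% GC, while the median of all 300-base windows was 52.7%. A GC box was present in 35.7% of 32851 promoter windows. The listed windows of Grm7 held 1 each with 61.0% and 66.7% GC, and of the 3 windows of Grm8 (43.3%, 54.0% and 67.0% GC) the last held 1. No window was available for Grm5 or for Grm4, the other down-regulated receptor gene. The cyclic AMP response element TGACGTCA, present in 1.79% of windows, was in none of those of Grm2, Grm3, Grm7 and Grm8. A match is a description of the letters and no sign of binding.

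The genes that work with these receptors were followed in lists by role. The list of Gi/o signalling, through which group II and III receptors act, had 23 genes, all tested, of which 8 were down-regulated and none up-regulated, beside 4.00% and 2.48% of all genes. At an unadjusted p under 0.05 the counts were 15 and 0. The share of all genes at that p was not counted, but Grm5, at an unadjusted p of 0.0193 by edgeR, stood only at rank 3993 of the 21876 genes. Limma after voom and DESeq2 also called 0 up-regulated, beside 2.3% and 3.14% of all genes. Of the 23, 20 lay below 0, and the median of the list was −0.26 on the log2 scale beside 0.03 over all genes. Adcy1, a calcium-stimulated adenylyl cyclase, had 1233 to 1420 CPM in shCtrl and 680.0 to 814.0 CPM in shPla2g4e libraries (log2 fold change −0.81, adjusted p = 2.05e-05). Gnb4, a G protein beta subunit, had 99.4 to 116.7 CPM in shCtrl and 53.0 to 64.3 CPM in shPla2g4e libraries (−0.81, adjusted p = 3.80e-05). Gnaz, the alpha subunit of Gz, had 104.5 to 126.2 and 73.7 to 79.5 CPM (−0.62, adjusted p = 2.17e-04). The other 5 that fell were Adcy9, the GIRK channel subunit Kcnj3, and the G protein subunits Gnb5, Gng7 and Gnb1, with log2 fold changes from −0.54 to −0.35. The calls of Kcnj3, Gnb5, Gng7 and Gnb1 were lost in 3, 8, 9 and 10 of 16 alternatives. Gnao1, the most abundant alpha subunit of the list, had 1175 ± 78.5 CPM in shCtrl and 1031 ± 41.5 CPM in shPla2g4e libraries (SD, n = 3) and did not pass (adjusted p = 0.150). Of the 23 genes 4 were called down without shCtrl replicate 1 or without shPla2g4e replicate 2, beside 2.51% and 2.65% of all genes. The count was 5 without shCtrl replicate 2 (2.07% of all genes), without shPla2g4e replicate 1 (2.57%) and with scaling by library size alone (2.78%). It was also 5 with upper-quartile scaling (3.24%) and with at least 10 reads in every library (4.99%). With DESeq2 (5.55% of all genes) or no filter (4.23%) 9 were called down, and with the replicate block 12, beside 9.02% of all genes. None was called up in any of these fits.

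The list of Gq signalling, the route of Grm5, went both ways. Of the 19 genes reported 3 fell and 1 rose past the test, beside 4.00% and 2.48% of all genes. With the replicate block the counts were 7 and 1, beside 9.02% and 6.5%. Of the 19, 10 lay below 0 and 9 above it, with a median of −0.06 on the log2 scale. Dagla, which makes the endocannabinoid 2-arachidonoylglycerol after Gq activation, had 97.2 to 108.7 CPM in shCtrl and 70.4 to 72.9 CPM in shPla2g4e libraries (log2 fold change −0.54, adjusted p = 2.82e-04). Gna11, a Gq-class alpha subunit, had 144.6 to 165.7 and 108.3 to 115.7 CPM (−0.51, adjusted p = 5.55e-04). Ptk2b, a calcium-activated tyrosine kinase, had 128.0 to 151.8 and 92.5 to 104.9 CPM (−0.49, adjusted p = 0.00114). Itpr1, the main neuronal IP3 receptor, rose from 107.7 ± 10.7 to 140.8 ± 0.892 CPM (SD, n = 3). Its call was lost when any library but shCtrl replicate 1 was left out, with an adjusted p of up to 0.0572, reached without shCtrl replicate 2. The genes called down numbered 5 with limma after voom (4.23% of all genes) and in the robust fit (4.45%), and 6 with DESeq2 (5.55%). They numbered 7 with no filter (4.23%) and without shCtrl replicate 3 (4.19%).

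Among 22 anchors and interactors of the receptors, 5 were down-regulated and 1 up-regulated, beside 4.00% and 2.48% of all genes (6 and 1 with the replicate block, beside 9.02% and 6.5%), and 15 lay below 0 with a median of −0.10 on the log2 scale. Shank3 and Shank2, scaffolds that reach Grm5 through Homer proteins, fell. Shank3 had 272.8 to 294.5 CPM in shCtrl and 132.2 to 178.7 CPM in shPla2g4e libraries (log2 fold change −0.84, adjusted p = 3.95e-05). Shank2 had 350.1 to 417.8 and 233.7 to 263.5 CPM (−0.63, adjusted p = 1.54e-04). Grasp, which encodes the group I receptor scaffold tamalin, rose from 51.0 to 62.0 CPM in shCtrl to 87.8 to 112.7 CPM in shPla2g4e libraries (0.82, adjusted p = 5.64e-05). Elfn1, a postsynaptic adhesion protein that recruits mGluR7 across the synapse, had 32.9 ± 3.64 and 19.3 ± 1.68 CPM (SD, n = 3 each, −0.77, adjusted p = 2.60e-04). Homer1, which links Grm5 to Shank, had 177.4 ± 13.4 and 178.8 ± 13.6 CPM (SD, n = 3 each, adjusted p = 0.956). Without shCtrl replicate 2, 3 genes of this list were called down, beside 2.07% of all genes.

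Of 13 genes that desensitize these receptors or shorten their signal, 4 were down-regulated and 1 up-regulated, beside 4.00% and 2.48% of all genes, and the median log2 fold change was −0.15. With the replicate block the counts were 5 and 1, beside 9.02% and 6.5%. The receptor kinase genes Grk6, Grk2 and Grk5 fell, as did Rgs4, an accelerator of G protein shut-off. Grk6 had 85.3 to 89.3 CPM in shCtrl and 44.1 to 50.1 CPM in shPla2g4e libraries (log2 fold change −0.87, adjusted p = 5.85e-06). Grk2 had 178.0 to 210.4 and 101.8 to 116.8 CPM (−0.82, adjusted p = 1.38e-05). Rgs8, another accelerator of the same kind, rose from 62.6 to 84.4 CPM to 112.7 to 147.9 CPM (0.87, adjusted p = 1.08e-04).

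Of 13 genes that set the supply of ligand, through glutamate uptake, cystine exchange and NAAG, 1 was down-regulated and none up-regulated, beside 4.00% and 2.48% of all genes. Of the 13, 10 were lower, and the median was −0.23. At an unadjusted p under 0.05, whose share over all genes was not counted, 7 were lower and 1 higher. Limma after voom and DESeq2 also called 0 up-regulated, beside 2.3% and 3.14% of all genes. With the replicate block 7 were called down and 1 up, beside 9.02% and 6.5% of all genes. The genes called down numbered 5 without shPla2g4e replicate 3, 6 with no filter on low reads, and 0 without shCtrl replicate 1, shPla2g4e replicate 1 or shPla2g4e replicate 2, settings in which 4.31%, 4.23% and 2.51% to 2.65% of all genes were called down. The count was also 0 with upper-quartile scaling (3.24% of all genes) and with scaling by library size alone (2.78%). It was 0 as well with at least 10 reads in every library (4.99%) and with the standard filter of edgeR (4.68%). Slc1a2, the astrocytic glutamate transporter GLT-1, had 1253 to 1357 CPM in shCtrl and 768.2 to 1135 CPM in shPla2g4e libraries (log2 fold change −0.50, adjusted p = 0.00778). Its call held in 7 of 16 alternatives and was lost when any library but shPla2g4e replicate 3 was left out, with an adjusted p of up to 0.0531, reached without shCtrl replicate 2. Slc7a11, the cystine-glutamate exchanger (−0.64, adjusted p = 0.0189), and Slc1a1, the neuronal transporter (−0.32, adjusted p = 0.0405), missed the threshold and passed it with the replicate block, at 3.74e-07 and 3.80e-04, and with no filter, at 8.4e-08 and 0.00673. Slc7a11 also passed with DESeq2 (0.0028), without shCtrl replicate 2 (−0.86, adjusted p = 4.82e-04) and without shPla2g4e replicate 3 (0.00849), and had an adjusted p of 0.152 in the robust fit. Slc1a1 was at −0.21 without shCtrl replicate 1 (adjusted p = 0.192).

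Of 8 relatives in the same receptor class, 1 was down-regulated and 1 up-regulated, beside 4.00% and 2.48% of all genes, with a median log2 fold change of −0.24. The genes called down numbered 2 with the replicate block, with no filter and without shPla2g4e replicate 3, beside 9.02%, 4.23% and 4.31% of all genes. Gabbr2, the subunit that carries the GABA-B receptor to the surface, had 355.3, 343.8 and 273.5 CPM in shCtrl and 219.5, 223.6 and 206.4 CPM in shPla2g4e replicates (log2 fold change −0.58, adjusted p = 7.31e-04). Its partner Gabbr1, which binds GABA, had 681.7 ± 65.9 and 760.0 ± 46.6 CPM (SD, n = 3 each, 0.16, adjusted p = 0.289). Gprc5a, an orphan receptor, was scarce, with 0.776 to 1.33 CPM in shCtrl and 2.06 to 4.72 CPM in shPla2g4e libraries (1.73, adjusted p = 0.00301), and its call was lost when any of 4 single libraries was left out (adjusted p up to 0.0173, without shPla2g4e replicate 2). Gprc5b, an orphan relative, was at −0.34 with an adjusted p of 0.0888. It passed with the block (1.53e-04), with no filter (0.00258) and without shPla2g4e replicate 3, where it was at −0.53 (adjusted p = 0.00102).

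**Figure D4:**
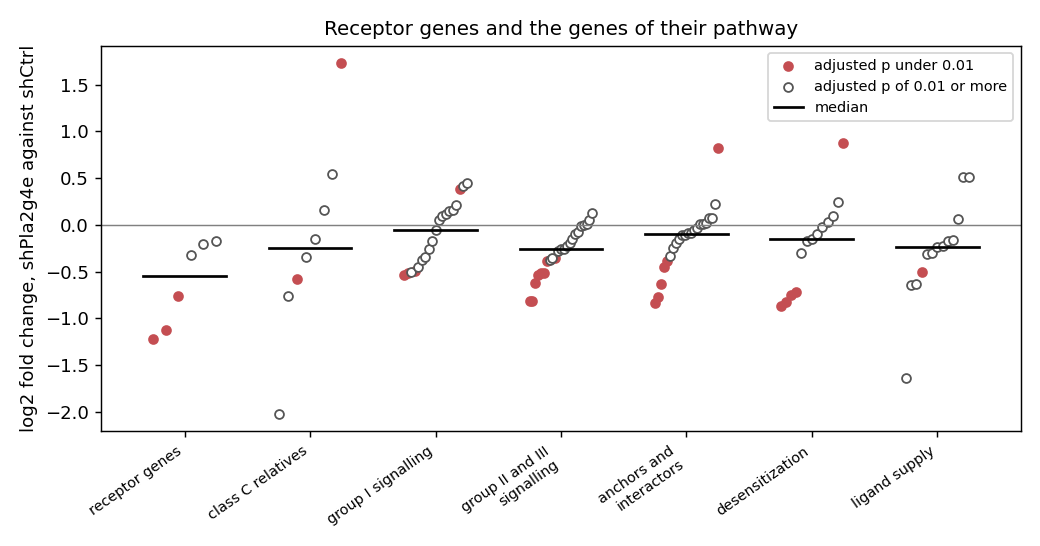
Log2 fold change, shPla2g4e against shCtrl (vertical axis), of the 6 receptor genes and of each gene in the lists around them (horizontal axis), with filled red points for an adjusted p under 0.01 and a bar at each median. The receptor genes have a median of −0.54, and the lists have medians between −0.26 and −0.06 with called genes on both sides of 0 in 4 of the 6.

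The genes whose levels followed each receptor most closely were taken by Pearson's r of log2 CPM over the 6 libraries, among the 10958 genes whose log2 CPM averaged 3 or more. The libraries form 2 groups, so that any gene with a steady difference between them ranks high, and the values are a description. Grm2 was most like Exoc6b (r = 0.998), Lnpep (0.998) and Kif2a (0.998), and Grm3 most like the receptor kinase gene Grk5 (0.998), Tecpr2 (0.997) and also Kif2a (0.997). For Grm4 these were Slco3a1 (0.997), Tspan5 (0.997) and Ylpm1 (0.996). Among the nearest to Grm7 were Gdap1 (0.997) and Vps50 (0.996), and to Grm5 Fpgt (0.995) and Gm49336 (0.992). For the scarce Grm8 the nearest were Med1 (0.971), Nkain2 (0.963) and Fam189b (0.961).

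Markers of the cells in the cultures were summed per library, and their part in the receptor levels was not tested. The 10 pan-neuronal markers, all detected, summed to 4906 to 5332 CPM in shCtrl and 4384 to 4816 CPM in shPla2g4e libraries, without overlap. Of them 3 were down-regulated and 2 up-regulated, beside 4.00% and 2.48% of all genes. In this list 5 log2 fold changes were below 0 and 5 above, with a median of −0.03, so that the lower sum rests on part of the list. The 7 glutamatergic markers summed to 2152 to 2341 and 1606 to 1891 CPM, also without overlap (2 down-regulated, 1 up-regulated). Here 3 log2 fold changes were below 0 and 4 above, with a median of 0.02, so that this lower sum too rests on part of the list. The 9 GABAergic markers summed to 836.1 to 909.3 and 798.1 to 887.6 CPM (2 down-regulated, 2 up-regulated), with 6 changes below 0 and 3 above and a median of −0.19. With the replicate block the calls were 4 down and 3 up for the pan-neuronal, 3 down and 2 up for the glutamatergic and 3 down and 2 up for the GABAergic markers, beside 9.02% and 6.5% of all genes. Without shCtrl replicate 2 the calls numbered 1 down and 1 up among the pan-neuronal markers and 1 down and 0 up among the glutamatergic markers, beside 2.07% and 1.14% of all genes. The glutamatergic calls were also 1 down and 0 up without shPla2g4e replicate 2 (2.65% and 1.68% of all genes). They were 3 down and 0 up without shCtrl replicate 3 (4.19% and 1.8%), and 2 down and 0 up without shPla2g4e replicate 1 (2.57% and 1.43%). The 10 astrocyte markers summed to 2913 to 3738 CPM in shCtrl and 1979 to 3172 CPM in shPla2g4e libraries. Of the 10 log2 fold changes 8 were below 0 and 2 above, with S100b at 1.11 (adjusted p = 0.0211, groups apart) and Aldh1l1 at 0.19. Aqp4, Gja1 and Slc1a2 among them fell, beside 4.00% of all genes. Under the replicate block 7 of the 10 were called down and 1 up (9.02% and 6.5% over all genes). The genes called down numbered 1 without shPla2g4e replicate 1 or 2 (2.57% and 2.65%) and in the robust fit (4.45%), and 6 without shPla2g4e replicate 3 (4.31%). Aqp4 lost its call with DESeq2 (adjusted p = 0.0124) and in the robust fit (0.122), and Gja1 in the robust fit (0.0139) and without shPla2g4e replicate 1 or 2 (0.0161 and 0.0121). For Aqp4, Gja1 and Slc1a2 the libraries of both groups were apart, as in this direction for 14.6% of all genes, while the sum over the list overlapped. The 8 oligodendrocyte lineage markers summed to 377.4 to 448.2 and 395.9 to 484.7 CPM, and the edgeR fit as described, limma after voom and DESeq2 called none, with 1 lower at an unadjusted p under 0.05 (share over all genes not counted). In other edgeR fits 1 of them was called down with the replicate block (9.02% of all genes) and 1 up without shPla2g4e replicate 3 (3.15%). With no filter 1 was called down and 1 up (4.23% and 3.08%). Microglial markers (7 of 8 tested) stayed at or under 10.3 CPM and mural and endothelial markers (5 of 7 tested) at or under 25.1 CPM in every library, with Cldn5 and Kcnj8 at 0 reads throughout.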

How the data were processed

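RNA was taken with the Maxwell RSC simplyRNA kit and libraries were made with the TruSeq Stranded mRNA kit. The authors aligned reads with STAR 2.7.0d, counted reads on exons with featureCounts 1.6.0 (versions from the submitters' processing notes) and deposited raw counts per gene, 1 file per library, without normalization. The methods name mm10 and GENCODE M18, while the file headers carry GENCODE vM28, whose GRCm39 coordinates are given for genes. No strand, read-pair or multi-mapping option is recorded, so that reads of an antisense gene, or of a region shared with another gene, can be misplaced or lost, and the reads of a pair count separately. Symbols came from GENCODE vM21 (52081 of 55357 identifiers matched). Promoters of 4 of the 6 genes came from RefSeq and transcripts from vM21, both on GRCm38. The sh2 sequence came from the study's reagent list.

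Counts were filtered at 6 reads in at least 1 library, as in the study, scaled by TMM and tested with edgeR 4.0.16 (quasi-likelihood, Benjamini-Hochberg, R 4.3.3), and the scripts were tested on simulated data. The study used limma after voom, which was an alternative here (limma 3.58.1), as was DESeq2 1.42.0. Other alternatives were other scalings, filters, a robust fit, a threshold of 0.05, a replicate block and each library left out. Log2 CPM for likeness used a prior count of 2. Chi-square per gene between libraries of a group was 6.03 to 15.4, and no library repeated another.

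Libraries are numbered 1 to 3 in both groups. Correlations between libraries, after the group mean was taken off each gene, were 0.391, 0.188 and 0.460 for the same number and −0.391 to 0.105 otherwise, over 10958 genes, so that same-numbered libraries deviated together. The labels give the numbers but do not say what they mark. The main test had no block, as the study names none, and blocked values are printed beside results whose call or count they change.

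Members and gene lists were chosen with earlier results of these data known. The text names the 6 receptor genes, Pla2g4e, the 3 genes of smallest p in each pathway list, and the genes among the 3 most like each receptor. Adcy9, Kcnj3, Gnb5, Gng7, Gnb1, Gnao1, Itpr1, Elfn1, Homer1, Rgs4, Grk5, Gabbr1 and the named markers were added after their values were seen. Other genes of the family, and some that these rules or lists pick, are not reported here.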

Additional observations from a re-analysis of the deposited data

How the results depend on the processing

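Grm2, Grm3, Grm4 and Pla2g4e kept their direction and their call in all 16 alternatives that refitted the test. Leaving out each library in turn gave −1.20 to −1.05 on the log2 scale for Grm2, −1.32 to −1.11 for Grm3, −0.85 to −0.69 for Grm4 and −1.14 to −0.83 for Pla2g4e. Grm5 stayed between −0.24 and −0.13 over all alternatives, with an adjusted p of 0.0124 or more. Grm7 was called without the filter on low reads (−0.32, adjusted p = 0.0042) and with the replicate block (−0.34, adjusted p = 2.44e-04), and ranged from −0.42 to −0.20 when each library was left out, the last without shPla2g4e replicate 2. Grm8 ranged from −0.41 to 0.02 when each library was left out and turned its sign without shPla2g4e replicate 2, at 0.0173. Down-regulated receptor genes numbered 3 throughout except for 4 with no filter, with the block and at a threshold of 0.05, where Grm7 was the fourth, and none was up-regulated under any alternative.

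Over all genes 1419 were called. With no filter there were 2349, with the replicate block 3395, at a threshold of 0.05 there were 2813, and without single libraries 695 to 1613, where the fewest were called without shCtrl replicate 2, and 928, 854 and 931 were called without shCtrl replicate 1, shPla2g4e replicate 1 and shPla2g4e replicate 2. The cause was not tested. DESeq2 called 1901, with no adjusted p for 5514 genes, and voom 1428. Among the receptor genes, Pla2g4e, and the pathway and marker genes named, the block changed no other call than those given beside their results. Grm8 had 98 reads in its lowest library, and its libraries varied by 29.1% and 30.0% of the group means (coefficient of variation). The other receptor genes had at least 277 reads in each library.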
